A study of Mus musculus with 12 samples.

Results

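Cxcl9, Cxcl10 and Cxcl11 are the genes of 3 chemokines that bind the receptor CXCR3. They were followed over an interferon gamma (IFNγ) dose series in mouse macrophages. The members were the entries of the deposited expression table that carry 1 of these 3 symbols. Each symbol had 1 entry of its own, so the set holds 3 of 46729 entries. The cells were macrophages grown from bone marrow of C57BL6 mice, first in interleukin-3 plus L-929 conditioned medium, which supplies colony-stimulating factor 1 (CSF-1), and then in conditioned medium alone. All 4 groups shared this culture of 10 days and differed in the last 8 h, in which the medium was replaced and held no IFNγ or IFNγ at 0.2, 2 or 20 U/ml. The label of the highest dose gives no volume and was taken to be per ml. Each group has 3 libraries, and no label says whether they came from separate animals or cultures.

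The deposited values are FPKM, a fragment count corrected for transcript length and for the number of mapped fragments, with 1 value per entry and group, so no difference here has a replicate check, a standard deviation or a test. Depth is unknown. A difference was expressed as a log2 ratio, the difference of log2(FPKM + 1), and an entry counted as higher or lower at a log2 ratio of at least 1 in size, which is 2-fold on this scale. Ratios of FPKM without the added 1 are given as folds. All 3 ligands were among the 11580 entries that had a mean of at least 1 FPKM and no group listed at 0. Cxcl11 was at 0.177, 0.407 and 1.05 FPKM in the 3 lower groups and passed only through its 23.8 FPKM at 20 U/ml. Its call and its ranks at 20 U/ml thus draw on the value that admitted it. Each of 7 macrophage markers was used, with sums between 2162 and 2748 FPKM per group. T and NK cell markers, 8 of 8 of them, were under 1 FPKM in every group, with sums between 0.0424 and 0.263 FPKM, and Cd3e, Cd3g, Ncr1 and Ifng were listed at 0 in all 4. Of the markers of B cells 2 of 3 were under 1 FPKM in every group, of dendritic cells 4 of 5, of neutrophils 3 of 5 and of endothelial and stromal cells 4 of 5. The summed level lay between 0.249 and 1.16 FPKM for B cells, 0.685 and 2.63 for dendritic cells, and 1.55 and 2.18 for endothelial and stromal cells. The neutrophil sum was ordered by dose like the ligands, at 16.7, 20.6, 27.9 and 34.3 FPKM. Most of it was S100a8, at 13.3, 18.0, 25.6 and 30.4 FPKM. S100a9, the other neutrophil marker that was used, was not ordered by dose, at 2.32, 1.25, 1.46 and 2.68 FPKM. The part of neutrophil transcripts in the results was not tested. The group at 0.2 U/ml stood apart in its counts: 606 of all entries were higher there than in untreated cells, against 289 at 2 U/ml. The dendritic cell marker Siglech and the B cell marker Ms4a1 reached 1.97 and 1.09 FPKM in that group and stayed under 1 FPKM in the others. In bulk RNA, more cells expressing a gene and more RNA per cell cannot be told apart.

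CXCR3 sits mainly on activated T cells, NK cells and their relatives, and its ligands draw these cells into tissue where interferon is being made. CXCL9 was first described as a monokine induced by IFNγ, CXCL10 as an interferon-inducible protein and CXCL11 as an interferon-inducible T cell chemoattractant. IFNγ acts through its receptor and the kinases JAK1 and JAK2, and the genes it induces include that of the transcription factor IRF1 and many with GAS elements. STAT2 and IRF9 act in a complex that binds interferon-stimulated response elements, and NF-κB also acts on ligand promoters. The C57BL/6 allele of Cxcl11 is known to carry a frameshift, so its transcript is not thought to give a working chemokine in this strain.

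The 3 genes lie within 44.1 kb of chromosome 5, all on the minus strand (GRCm38, the assembly behind mm10, with GENCODE M21 gene models). Cxcl9 (ENSMUSG00000029417.9) runs from 92321347 to 92328079, Cxcl10 (ENSMUSG00000034855.13) from 92346638 to 92348889 and Cxcl11 (ENSMUSG00000060183.6) from 92359544 to 92365485. GENCODE types Cxcl9 and Cxcl10 as protein coding and Cxcl11 as a polymorphic pseudogene, and RefSeq types Cxcl11 as a transcribed pseudogene. In the GENCODE models the start site of Cxcl9 is 20.8 kb from that of Cxcl10, and the start site of Cxcl11 is 16.6 kb away on the other side. RefSeq ends Cxcl11 at 92363296, so its start site and the overlaps at that end depend on the annotation. Cxcl10 and Cxcl11 both lie inside the span of Art3, a gene of the ADP-ribosyltransferase family on the plus strand. Exons of Cxcl10 and Art3 overlap over 133 nt, exons of Cxcl11 and Art3 over 0 nt, and the first exon of the longer Cxcl11 model overlaps the plus-strand pseudogene Gm2673 over 1582 nt. Use of strand in counting was not given in the sources used here, so reads in those overlaps cannot be assigned. Art3 was listed at 0 without IFNγ and at the lowest dose, with 0.0519 FPKM at 2 U/ml and 0.397 FPKM at the top dose, and Gm2673 was listed at 0 in all 4 groups.

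Promoter sequences were found in the RefSeq table (GRCm38.p6) for 2 of the 3 ligands, and not for Cxcl11. They are shown so that matches to motifs of interferon-responsive and NF-κB factors, and windows without a match, can be read beside the values. Each is the 250 bases before the start site on the minus strand, with matches to the searched motifs in capitals. Cxcl9 is chr5:92328080-92328329 and Cxcl10 is chr5:92348890-92349139.
Cxcl9: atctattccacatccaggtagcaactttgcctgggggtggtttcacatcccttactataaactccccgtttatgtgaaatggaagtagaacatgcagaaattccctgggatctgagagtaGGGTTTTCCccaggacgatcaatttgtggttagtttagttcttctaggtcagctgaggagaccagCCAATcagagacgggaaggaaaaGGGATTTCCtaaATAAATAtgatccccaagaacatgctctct
Cxcl10: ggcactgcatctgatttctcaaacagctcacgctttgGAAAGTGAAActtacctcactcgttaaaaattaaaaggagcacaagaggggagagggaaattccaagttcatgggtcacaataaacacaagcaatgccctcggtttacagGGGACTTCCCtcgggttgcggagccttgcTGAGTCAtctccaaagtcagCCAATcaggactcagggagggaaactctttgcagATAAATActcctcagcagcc

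Both strands were searched for 6 motifs, and a match describes letters only. Each motif was searched as a fixed pattern, so sites with other letters or spacing are missed. A window without a match may thus still hold a site. The interferon-stimulated response element, searched as GAAA, any 2 bases and GAAA again, was found in Cxcl10, from 213 to 204 bases before the start site, and in 3.04% of 27025 promoters of the same length. The κB-like motif GGGNNNTCC was found in both promoters and in 15.0% of all. Cxcl9 held it from base 130 to 122 and from base 42 to 34, and Cxcl10 from base 103 to 95, where a match on the other strand overlaps it. The AP-1 motif TGANTCA was found in Cxcl10 and in 6.87% of promoters. The GAS motif TTCNNNGAA, present in 7.18% of promoters, had no match in either window. Both held CCAAT (34.5% of promoters) and the TATA-like ATAAATA (5.33%). The longest run of letters the 2 windows share on the same strand is CAGCCAATCAG, which is 11 bases long and begins 68 bases before the Cxcl9 start site and 57 before that of Cxcl10.

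Cxcl9 stood at 1.04 FPKM without IFNγ, and the doses of 0.2, 2 and 20 U/ml gave 1.28, 3.96 and 163 FPKM. The 3 lower groups lay within a few FPKM of each other, and the top dose stood far apart from them. Cxcl10 was at 2.88, 4.54, 22.5 and 151 FPKM in the same order, with a clear difference already at 2 U/ml. Cxcl11 was at 0.177, 0.407, 1.05 and 23.8 FPKM, the lowest of the 3 in every group. All 3 were ordered by dose, and whether neighbouring groups differ beyond replicate spread cannot be read from 1 value each.

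**Figure D1:**
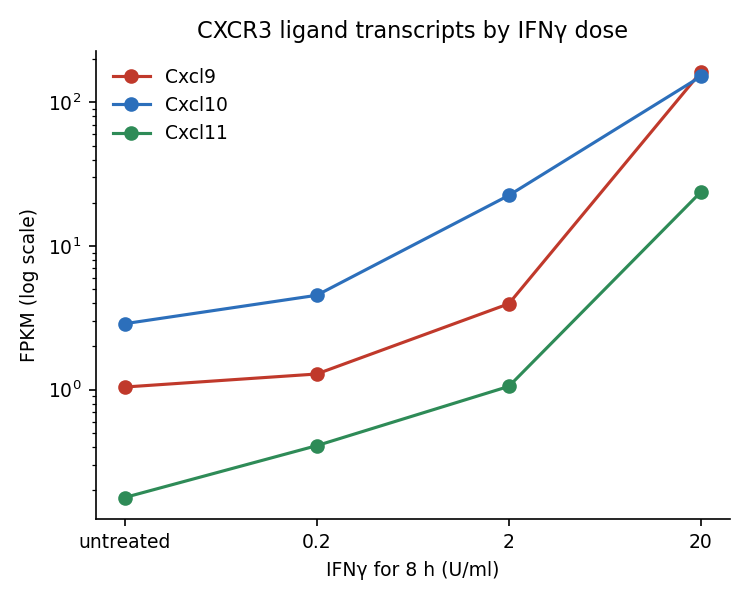
FPKM on a log scale (vertical axis) of Cxcl9, Cxcl10 and Cxcl11 in untreated macrophages and after 8 h at 0.2, 2 and 20 U/ml IFNγ (horizontal axis), 1 deposited value per group and no error bars. Cxcl10 is the highest of the 3 up to 2 U/ml, and Cxcl9 reaches 163 FPKM beside 151 for Cxcl10 at 20 U/ml.

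The order of Cxcl9 and Cxcl10 was not the same at every dose. Per unit of transcript length, Cxcl10 was 2.76 times Cxcl9 in untreated cells, 3.53 times at 0.2 U/ml and 5.68 times at 2 U/ml. At 20 U/ml Cxcl9 was 1.07 times Cxcl10, so the values were close and their order rests on a small difference with no known error. As a share of the summed FPKM of the 3 ligands, Cxcl10 made up 70.2% without IFNγ and 72.8%, 81.8% and 44.8% at the 3 rising doses. Cxcl9 made up 25.5%, 20.6%, 14.4% and 48.1%, and Cxcl11 between 3.83% and 7.04%. The sum itself went from 4.10 FPKM without IFNγ to 338 FPKM with the top dose. FPKM levels depend on the transcript length that was used, and the gene models differ: Cxcl10 has 4 annotated transcripts of 344 to 2230 nt, Cxcl9 has 2 of 370 and 2889 nt, and Cxcl11 has 2 of 1581 and 3794 nt.

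At 20 U/ml against untreated cells, the comparison that asks how far the ligands go at the strongest dose, all 3 ligands were higher, where 6.51% of the 11580 entries were. Of all entries that were either higher or lower, 68.9% were higher, and 57.1% with upper-quartile scaling. The log2 ratio was 6.32 for Cxcl9, which is 156-fold in FPKM. It was 5.30 for Cxcl10, or 52.7-fold. It was 4.40 for Cxcl11, or 134-fold. Among all entries ordered by log2 ratio, Cxcl9 was number 3, Cxcl10 number 15 and Cxcl11 number 49. With a pseudocount of 0.1 in place of 1, Cxcl11 was number 6 with a log2 ratio of 6.43, ahead of Cxcl10 at number 20 with 5.67, so the order of these 2 depends on how low values are treated.

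At 2 U/ml against untreated cells, Cxcl9 and Cxcl10 were higher, which makes 2 of 3, with 2.50% of all entries higher. Their log2 ratios were 1.28 and 2.60, and the folds 3.80 and 7.82. Cxcl11 did not pass the size rule, with a log2 ratio of 0.80 from 0.177 to 1.05 FPKM. The fold without the added 1 was 5.94, and with a pseudocount of 0.1 the log2 ratio was 2.06 and with 0.01 it was 2.51. At 0.2 U/ml against untreated cells, 0 of 3 ligands were higher, with 5.23% of all entries higher. The log2 ratios were 0.16 for Cxcl9, 0.51 for Cxcl10 and 0.26 for Cxcl11, with folds of 1.23, 1.58 and 2.30. With a pseudocount of 0.01 Cxcl11 alone passed, at 1.16. The 3 comparisons share the untreated values.

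Each of the 2 steps between doses is a 10-fold increase in IFNγ. From 0.2 to 2 U/ml, Cxcl9 and Cxcl10 were higher, with log2 ratios of 1.12 and 2.08, and 1.51% of all entries were. Lower entries were more common in this step, at 725 or 6.26% of all, against 175 higher. Cxcl11 was at 0.55 on this scale and passed with a pseudocount of 0.1, at 1.18, and of 0.01, at 1.35. From 2 to 20 U/ml, all 3 were higher, with 2.90% of all entries higher. The log2 ratios were 5.04 for Cxcl9, 2.70 for Cxcl10 and 3.59 for Cxcl11. In FPKM the 2 steps were 3.08-fold and 41.0-fold for Cxcl9, 2.59-fold and 22.6-fold for Cxcl11, and 4.96-fold and 6.73-fold for Cxcl10. The steps of Cxcl10 were thus closer to each other in size than those of Cxcl9 and Cxcl11. Over both steps together, from 0.2 to 20 U/ml, all 3 ligands were higher, where 6.06% of all entries were higher and 8.58% lower, which is 702 and 994 entries. The folds were 127-fold for Cxcl9, 33.4-fold for Cxcl10 and 58.4-fold for Cxcl11.

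Among the 754 entries higher at 20 U/ml, the second step was larger than the first in 551, or 73.1%, and the median log2 ratios of the steps were 0.56 and 0.88. Both steps passed the size rule in 91 of the 754, or 12.1%, and Cxcl9 and Cxcl10 were 2 of these. In the second step Cxcl9 had rank 1 of 11580 with a pseudocount of 1 or 0.1 and rank 2 with 0.01. Cxcl11 had rank 9 and Cxcl10 rank 30, and with a pseudocount of 0.1 they had ranks 5 and 47.

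**Figure D2:**
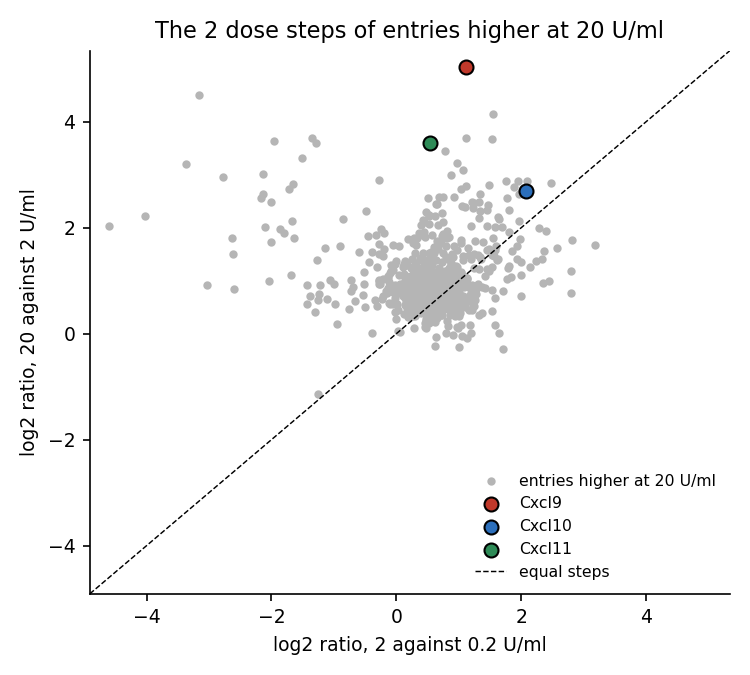
Log2 ratio of 20 against 2 U/ml (vertical axis) and of 2 against 0.2 U/ml (horizontal axis) for the 754 entries higher at 20 U/ml than in untreated cells (grey points), with the 3 ligands in colour and a dashed line of equal steps. Cxcl9 and Cxcl11 sit far above the line at 5.04 and 3.59 in the second step, and Cxcl10 sits closer to it at 2.70.

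The same contrast can be stated as the share of the FPKM difference between untreated cells and 20 U/ml that was reached at a lower dose. At 2 U/ml this share was 1.81% for Cxcl9, 3.71% for Cxcl11 and 13.2% for Cxcl10. Over the 754 entries higher at 20 U/ml, the median share at 2 U/ml was 30.2%, with quartiles at 19.4% and 43.4%. The value at 20 U/ml that chose these entries also sets the difference each share is taken of. Of these entries, 21 had a lower share than Cxcl9, 27 a lower share than Cxcl11 and 108 a lower share than Cxcl10. At 0.2 U/ml the shares were 0.150% for Cxcl9, 0.974% for Cxcl11 and 1.12% for Cxcl10, with a median of 6.15% over the 754 entries, of which 174, 192 and 197 had lower shares.

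Genes of the signalling and chemokine lists covered a wide range on this measure. Irf1, a transcription factor induced by IFNγ, had reached 54.4% of its difference at 2 U/ml. Stat2 was at 40.3%, and Socs3, a feedback inhibitor of cytokine receptors, at 22.7%. Lower shares were those of Irf7, a factor of the type I interferon response, at 14.1%, Usp18, which restrains the type I interferon receptor, at 13.5%, and Socs1, the feedback inhibitor of JAK kinases, at 11.6%. Ccl5, a T cell attracting chemokine of the CC family, was at 5.56%, the lowest of the 12 pathway and neighbour entries compared here, all higher at 20 U/ml.

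**Figure D3:**
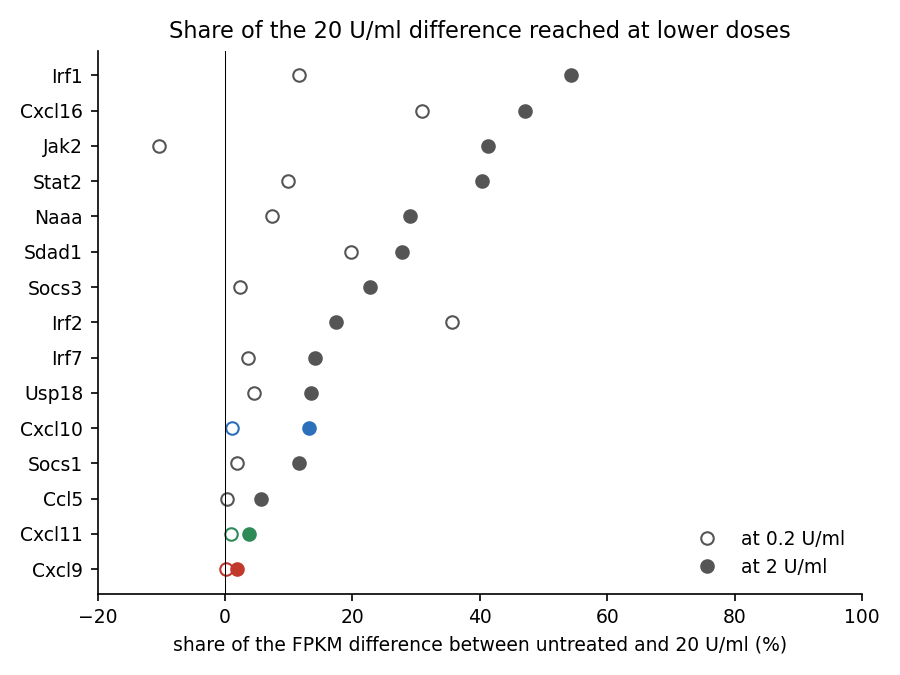
Share of the FPKM difference between untreated cells and 20 U/ml IFNγ that was present at 0.2 U/ml (open circles) and at 2 U/ml (filled circles), in percent (horizontal axis), for the 3 ligands and 12 pathway and neighbour entries higher at 20 U/ml. Cxcl9 and Cxcl11 have the smallest shares at 2 U/ml, 1.81% and 3.71%, and Irf1 the largest, 54.4%; a value below 0 is a level below that of untreated cells.

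The receptor gene Cxcr3 itself was detected at a low level, 3.16, 2.70, 2.43 and 2.12 FPKM in order of dose, a log2 ratio of -0.41 at the top dose. This level stood beside T and NK cell markers that were all under 1 FPKM. Ackr3, an atypical receptor that also binds CXCL11, was listed at 0 in all 4 groups. Dpp4, a peptidase that trims the ligands at their amino end, was at 0.104, 0.00421, 0.0454 and 0.0722 FPKM over the 4 groups.

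In the IFNγ signalling list, 9 of 10 genes were used. At 20 U/ml 6 were higher and 0 lower, where 6.51% of all entries were higher and 2.94% lower. The median log2 ratio was 1.25, beside a median of 0.01 over all entries. Irf1 was at 34.1, 89.1, 293 and 511 FPKM in order of dose, so unlike the ligands it was higher at all 3 doses. Socs1 was at 2.06, 4.55, 17.9 and 138 FPKM, a low start and a steep last step like those of Cxcl10. Jak2 passed narrowly at 20 U/ml, with a log2 ratio of 1.01, and did not pass under upper-quartile scaling or quantile normalization, which leaves 5. The receptor chain Ifngr1 had 53.9 FPKM without IFNγ and between 41.6 and 44.5 with it. The other chain, Ifngr2, lay between 36.9 and 41.7 FPKM. The list had 3 higher at 2 U/ml and 2 at 0.2 U/ml, where 2.50% and 5.23% of all entries were.

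In the type I interferon arm, 8 of 9 genes were used, and 3 were higher and 0 lower at 20 U/ml. Over all entries 6.51% were higher and 2.94% lower. The median log2 ratio of the 8 was 0.88. The 3 were Irf7 at 422 against 17.2 FPKM, Usp18 at 105 against 7.81 and Stat2 at 90.8 against 11.5. The merged entry of Irf9 and Rnf31 was just under the size rule, at 0.98. Ifnb1, which encodes interferon beta, stayed under the filter and was listed at 0 in untreated cells, with 0.109, 0.0493 and 0.500 FPKM at 0.2, 2 and 20 U/ml. At 2 U/ml 3 of 8 were higher and at 0.2 U/ml 0 of 8, where 2.50% and 5.23% of all entries were. A count of 0 of 8 is near the last share.

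The NF-κB list held no entry past the size rule: 0 of 8 were higher and 0 lower at each dose against untreated cells. Over all entries, 5.23%, 2.50% and 6.51% were higher at the 3 rising doses, and 0.328%, 0.760% and 2.94% were lower. A count of 0 of 8 is near these shares. The median log2 ratio at 20 U/ml was 0.15. Relb was at 0.49, Nfkb2 at 0.47 and Nfkb1 at 0.43, and the subunit Rela was at 29.1 against 27.8 FPKM. Of the inhibitors, Nfkbia was at 71.5 against 72.8 FPKM and Tnfaip3 at 4.23 against 4.24. These are transcript levels, which do not report the activity of the factor.

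**Figure D4:**
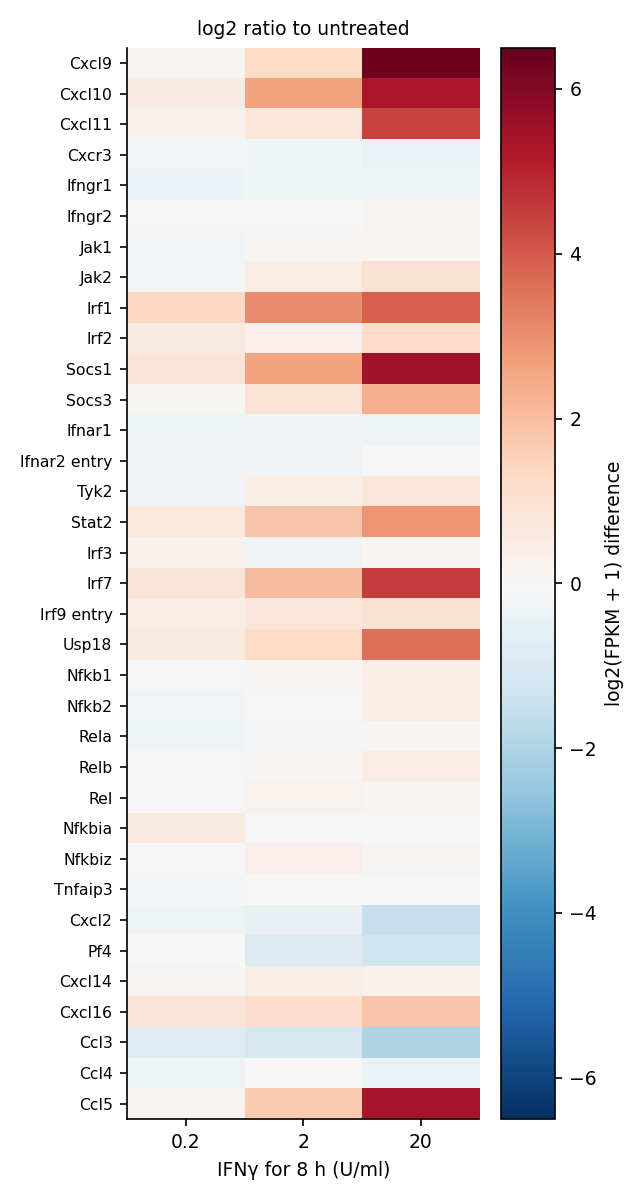
Log2 ratio to untreated cells (colour) at 0.2, 2 and 20 U/ml IFNγ (columns) for the 3 ligands, their receptor gene Cxcr3 and entries of the signalling and chemokine lists (rows); an entry that merges several genes is marked as an entry. The ligands, Socs1, Ccl5 and Irf7 have the highest values at 20 U/ml, between 4.40 and 6.32, while the NF-κB rows stay under 1 in size.

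Other chemokines of the CXC family did not follow the CXCR3 ligands as a group. Of 10 such genes 4 were used, and at 20 U/ml 1 was higher and 2 lower. Among all entries 6.51% were higher and 2.94% lower. The median log2 ratio of the 4 was -0.50. The higher one, Cxcl16, a membrane-bound chemokine and scavenger receptor, was at 53.4, 97.9, 121 and 197 FPKM over the 4 groups. Cxcl2, a neutrophil attractant, was at 4.73, 3.53, 3.07 and 1.03 FPKM. Pf4, platelet factor 4, was at 472, 470, 251 and 194 FPKM. Cxcl14 had 160 FPKM without IFNγ and 194 with the top dose. The remaining 6 stayed under the filter or had a group listed at 0. Of 6 CC chemokine genes that attract T cells 3 were used, and at 20 U/ml 1 was higher and 1 lower. The shares over all entries were again 6.51% and 2.94%. Ccl5 was at 1.57, 1.88, 7.36 and 106 FPKM, while Ccl3 was at 47.8, 25.9, 22.0 and 11.7 FPKM. Ccl4 had 41.5 FPKM without IFNγ and 31.1 with the top dose. Ccl22 stayed under the filter, at 0.159, 0.110, 0.436 and 1.17 FPKM, as did Ccl17, at 0.0736, 0.0342, 0 and 0 FPKM.

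Genes beside the ligands on chromosome 5 had much smaller ratios. Of 8 neighbours 6 were used, and at the top dose 2 passed as higher, where 6.51% of all entries did. The median log2 ratio of the 6 was 0.63. Naaa, a lysosomal amidase, was at 20.4, 25.5, 40.7 and 90.5 FPKM, a log2 ratio of 2.10 at the top dose, and its start site lies 70.7 kb from that of Cxcl10. Sdad1, between Naaa and Cxcl9, was at 3.04, 3.97, 4.34 and 7.71 FPKM, a log2 ratio of 1.11, and was under the size rule with upper-quartile scaling. On the other side of the cluster, Nup54, a nuclear pore protein, was at 8.48 against 12.3 FPKM at 20 U/ml, and Scarb2, a lysosomal membrane protein, at 39.1 against 39.4.

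**Figure D5:**
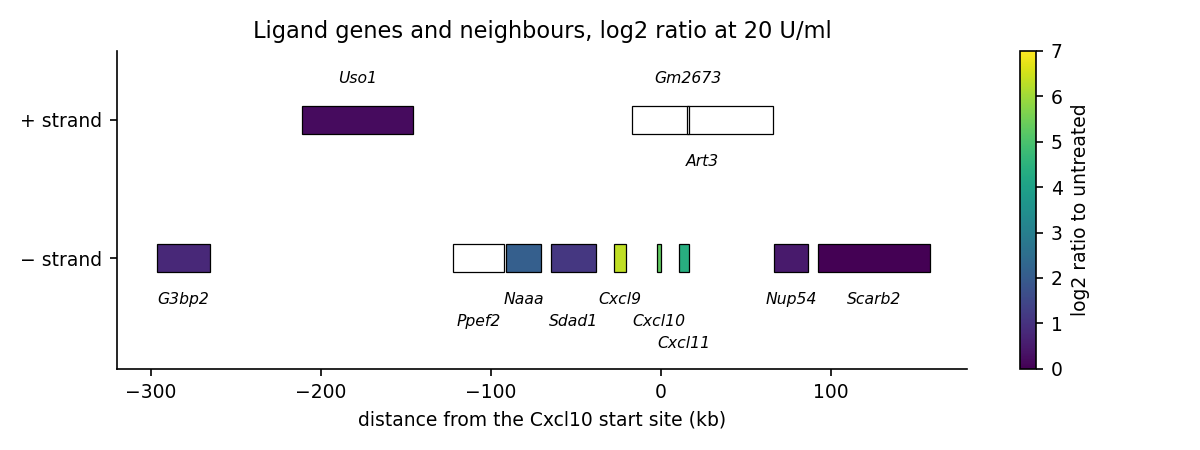
Position of the 3 ligand genes and the neighbours named in the text, in kb from the Cxcl10 start site (horizontal axis) and by strand (vertical axis), coloured by the log2 ratio at 20 U/ml to untreated cells; white bars are Art3, Gm2673 and Ppef2, which were under the filter. The 3 ligands stand at 4.40 to 6.32, and the highest neighbour, Naaa, at 2.10.

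The genes most like each ligand were found by the Euclidean distance over the 3 log2 ratios to untreated cells, from 4 group values, among 10686 other single-gene entries. For Cxcl10 the nearest were Klrk1, which encodes the activating receptor NKG2D (distance 0.12), the serpin gene Serpina3f (0.17), the chemokine gene Ccl8 (0.35), Socs1 (0.41) and the chemokine gene Ccl12 (0.49). Klrk1 was at 0.948, 2.00, 10.7 and 72.4 FPKM. For Cxcl11 the nearest were Ch25h, which makes 25-hydroxycholesterol (0.34), Slfn1 (0.55), the receptor chain Il12rb1 (0.61), Upp1, a uridine phosphorylase (0.62), and the complement gene C3 (0.62). Ch25h was at 2.66, 3.07, 6.95 and 73.0 FPKM. For Cxcl9 the nearest lay farther off: Serpina3g (1.03), Ccl5 (1.03), Oasl1 (1.11), Serpina3f (1.60) and Ccl12 (1.70). On this scale the ligands were not each other's nearest: Cxcl10 was number 6 for Cxcl9, at a distance of 1.71, and Cxcl9 was number 53 for Cxcl10. Cxcl11 was number 13 for Cxcl9 and number 66 for Cxcl10. All these ratios share 1 untreated value per gene and rest on the same 4 groups. They were computed with a pseudocount of 1 only, which shrinks the ratios of genes with low values. With 0.1, the 3 log2 ratios of Cxcl11 were 0.87, 2.06 and 6.43, against 0.26, 0.80 and 4.40 here. Its neighbours and the ranks among the ligands may thus change with the pseudocount, which was not tested.

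In the authors' deposited table of a Cuffdiff comparison between untreated and treated cells, which names no dose, Cxcl10 was marked significant, as were 68.9% of its tested entries, and Cxcl9 and Cxcl11 were marked as not tested.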

How the data were processed

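Per the submitters' processing notes, the authors' tools included Cuffdiff 2.1.1, TopHat2 2.1.1 and Cufflinks 2.1.1, and the build was mm10. The deposited expression table holds FPKM, 1 value per group, per the file headers. The untreated column names no unit and was read as FPKM from its range. Whether a value combines the 3 libraries of its group was not given in the sources used here. Another deposited table, a Cuffdiff comparison that names no dose, holds per entry a q-value, a p-value, a log2 fold change and a test statistic (score), per the file headers. Its 2 columns of values per condition were not used.

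Of 46729 entries, 11852 had a mean of at least 1 FPKM, and 272 of these, listed at 0 in a group, were left out. Differences of log2(FPKM + 1) were computed with Python 3.11.15, pandas 2.3.3 and NumPy 2.4.6 for 6 comparisons, without tests, and the calculation was checked on simulated data. Named genes were the 3 ligands, the 5 single-gene entries nearest to each (all transcripts of at least 200 nt where known) and the genes of 7 pathway lists and 6 marker lists. The members and lists were chosen with earlier results of these data known. Irf8 and Ccl19 were not analysed here, and the values of 1 entry of the IFNγ signalling list, counted in that list, are not reported here. Alternatives were pseudocounts of 0.1 and 0.01, upper-quartile scaling, quantile normalization and other filters. Upper-quartile scaling used the 11580 entries. Gene models came from GENCODE M21 and promoters from RefSeq.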

Additional observations from a re-analysis of the deposited data

Results flagged for a closer look

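In the authors' deposited table, the comparison of conditions called untreated and treated without a dose, Cxcl10 had a log2 fold change of 2.80, a p-value of 5e-05 and a q-value of 9.95e-05 by Cuffdiff. It was taken up because that table enters none of the comparisons between doses. Cxcl9 was marked as not tested there, with a log2 fold change of -0.77, and Cxcl11 was marked as not tested, with an infinite one. Of 12854 entries tested in the authors' deposited table, 68.9% were marked significant. The same table gives log2 fold changes of 4.45 for Ccl5 (q-value 9.95e-05), 1.70 for Irf7 (q-value 0.00245) and 0.61 for Usp18 (q-value 0.00733), all marked significant. It gives 0.38 for Irf1 (q-value 0.0747) and 0.47 for Socs1 (q-value 0.0790), which were not. These values differ from those of the dose series, where the log2 ratio of Irf1 was 1.36, 3.07 and 3.87 at the 3 doses and Cxcl9 was below its untreated level at none. Which dose the treated condition had is unknown, so the value for Cxcl10 was set beside no dose. It places Cxcl10 and Cxcl11 under 1 shared locus, from 92331827 to 92414628 on chromosome 5, the span of Art3.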

How the results depend on the processing

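No paired analysis was possible because the table holds 1 value per group, and for the same reason no library could be left out. Of 72 ligand ratios under other settings, 67 kept their direction and their side of the size rule, and the other 5 were all of Cxcl11 with a smaller pseudocount. With a pseudocount of 0.01 Cxcl11 was at 1.16 at 0.2 U/ml and 2.51 at 2 U/ml against untreated cells, and at 1.35 from 0.2 to 2 U/ml, and 1 of 3 ligands was then higher at 0.2 U/ml. With 0.1 it was at 2.06 at 2 U/ml against untreated cells and 1.18 from 0.2 to 2 U/ml. From 0.2 to 2 U/ml, 175 of all entries were higher, but 296 without the filter on low values, and 275 and 288 with the pseudocounts 0.1 and 0.01. From 2 to 20 U/ml, 518 were higher with no filter, against 336. The share of the 20 U/ml difference reached by Cxcl9 at 0.2 U/ml was 0.0983% with upper-quartile scaling and 0.0635% with quantile normalization, against 0.150%, and that of Cxcl11 was 0.202% with quantile normalization, against 0.974%. Upper-quartile scaling moved the median log2 ratio of all entries at 20 U/ml from 0.01 to -0.11, and both scalings moved that at 0.2 U/ml from 0.00 to -0.10. Low levels of Cxcl9 and Cxcl11 in untreated cells limit their folds, since the number of reads behind them is unknown.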
